A study of Mus musculus with 24 samples.

Results

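MiR-210 was measured by 1 probe, the one named exactly mmu-miR-210, out of 558 mouse miRNA probes on each of 24 arrays. The arrays held RNA from 3 mouse mammary carcinoma lines 67NR, 4TO7 and 4T1, which the labels call nonmetastatic, systemically invasive and highly metastatic in that order, all kept for 6 days in 3-dimensional organotypic culture. Each line was grown in a rigid or a compliant microenvironment and given either TGF-beta or a compound that blocks its type I receptor (the inhibitor), which made 12 groups of 2 arrays, set 1 and set 2. No group went without both agents, so a change with TGF-beta cannot be told apart from an opposite change with the inhibitor, and doses, oxygen levels and the way stiffness was set are not given in the sources used here. Nothing says that set 1 and set 2 were separate cultures, so p-values measure only the spread between these arrays, and in such bulk RNA fewer cells with the miRNA and less of it per cell cannot be told apart.

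MiR-210 is known as the miRNA most regularly induced by low oxygen: the hypoxia-inducible factor HIF-1 binds near its gene and raises its transcription. Its known targets include the iron-sulfur cluster scaffold proteins ISCU1 and ISCU2, which mitochondrial respiration needs, and the receptor ligand ephrin-A3, a brake on the vessel-forming response of endothelial cells. TGF-beta is a growth factor that signals through its type I receptor to Smad2 and Smad3 and can drive epithelial cells towards a mesenchymal state.

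The name mmu-miR-210 without an arm is the older name of the arm now called miR-210-3p. In RefSeq (build GRCm38.p6) the Mir210 hairpin lies on the minus strand of chromosome 7 at chr7:141221384-141221493, overlaps no other annotated gene of that table, and stands between the genes Rassf7 and Gm51460. The hairpin of 110 bases is shown with its 3p arm, bases 66 to 87, in capitals, because this arm is what the array name refers to. The second line gives the mature miRNA with its seed, bases 2 to 8, in capitals, since the seed sets which messages it pairs with.
Mir210 hairpin: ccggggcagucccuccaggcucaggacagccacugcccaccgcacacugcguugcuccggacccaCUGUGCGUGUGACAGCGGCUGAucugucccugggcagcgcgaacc
mmu-miR-210-3p: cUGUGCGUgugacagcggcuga
Of 1738 mature mouse entries in the RefSeq table, 1 carries this seed, that of miR-210-3p itself, so miR-210 has no seed relatives there to set beside it.

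The miRNA was detected on all 24 arrays with the fail code unset, where detection means a p under 0.05 for the sample signal against background probes. The largest detection values, 0.000641 and 0.000366, were those of compliant 67NR with TGF-beta, which also had the lowest levels. The arrays' own error of the miR-210 intensity was 3.12% to 9.69%. Across the series 313 to 357 mouse probes were detected per array, and replicate arrays correlated at r = 0.996 to 0.999 across probes. Among line markers, 5 of 6 epithelial miRNAs were detected on all 8 arrays of 4T1 but only miR-141 on all 8 of 4TO7 and of 67NR. In 4TO7 and 67NR, miR-200b, miR-200c and miR-429 were detected on no array. MiR-200a was detected on 6 arrays of 4TO7 and 1 of 67NR. The sixth marker, miR-205, was detected on 2 arrays of 4TO7 and on none of 4T1 or 67NR. Of 5 mesenchymal probes, miR-145, miR-199a-5p and miR-214 were detected on all 24 arrays, the probe of miR-199a-3p on none, and miR-143 on all 8 arrays of 67NR and none of the other lines. The endothelial miR-126-3p and miR-126-5p were detected on no array, as were 4 of the 5 blood markers; the fifth, miR-451, was detected on all 24. Of 3 muscle markers, 1 was detected, and in 67NR alone. Summed over the 5 blood markers, relative intensity was 1341 to 1975 on TGF-beta arrays and 1272 to 1936 on inhibitor arrays. Since only miR-451 of these was detected, that sum is no measure of blood cells, whose part in the results was not tested. Over all 3 lines, the epithelial sum was 340 to 2091 on TGF-beta arrays and 373 to 2128 on inhibitor arrays. The mesenchymal sum was 7516 to 19615 on TGF-beta arrays and 6286 to 22512 on inhibitor arrays.

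The deposited unit is a relative intensity, the sample dye over a reference dye. In rigid culture, 67NR had 178 and 208 with TGF-beta and 355 and 319.7 with the inhibitor. In compliant culture, 67NR had 147 and 157 with TGF-beta and 369 and 307 with the inhibitor. All 4 TGF-beta arrays of this line lay below all 4 of its inhibitor arrays.

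4TO7 had the highest levels. In rigid culture it had 539 and 508 with TGF-beta and 706 and 679 with the inhibitor. In compliant culture it had 785 and 921 with TGF-beta and 1013 and 871 with the inhibitor, and these last 2 groups overlapped.

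4T1 had 314 and 266 in rigid culture with TGF-beta and 683 and 587 with the inhibitor. In compliant culture it had 415 and 369.8 with TGF-beta and 684 and 967 with the inhibitor. As in 67NR, no TGF-beta array of 4T1 reached any of its inhibitor arrays. After normalization the same separation of 4 arrays below 4 held for 8.22% of the 365 tested probes in 67NR and 12.1% in 4T1.

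**Figure D1:**
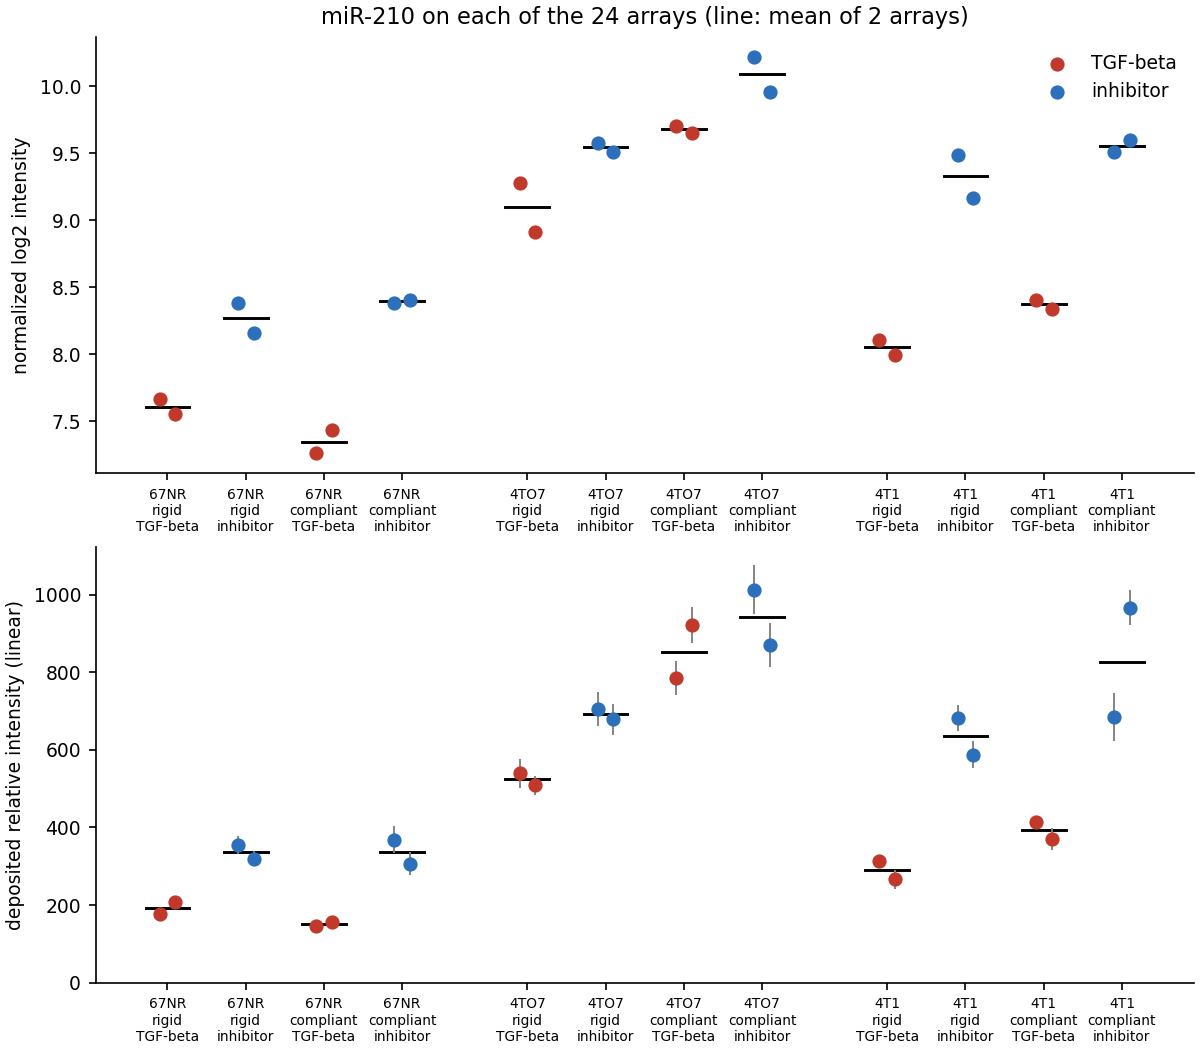
MiR-210 on each array (points) with the mean of the 2 arrays of a group (black lines), by line, microenvironment and treatment; the upper panel shows quantile-normalized log2 intensity and the lower one the deposited relative intensity, with grey bars for the authors' error of each array. Both TGF-beta arrays lie below both inhibitor arrays in 6 of 6 pairings above, and in 5 of 6 below, where the compliant 4TO7 arrays overlap.

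The arrays were then quantile normalized over the 558 probes, and the values from here on are on that log2 scale. In 67NR miR-210 averaged 7.61 ± 0.08 with TGF-beta and 8.27 ± 0.16 with the inhibitor in rigid culture (SD, n = 2 in this and all groups). In compliant culture it averaged 7.35 ± 0.12 with TGF-beta and 8.39 ± 0.02 with the inhibitor. The spread between the 2 arrays was small beside the difference in both.

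In 4TO7 the means were 9.10 ± 0.26 with TGF-beta and 9.55 ± 0.05 with the inhibitor in rigid culture. In compliant culture they were 9.68 ± 0.04 with TGF-beta and 10.09 ± 0.19 with the inhibitor. The compliant TGF-beta mean of this line was 0.13 above its rigid inhibitor mean, a difference that did not pass (limma, adjusted p = 0.656).

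In 4T1 the means were 8.05 ± 0.08 with TGF-beta and 9.33 ± 0.22 with the inhibitor in rigid culture. In compliant culture they were 8.37 ± 0.05 with TGF-beta and 9.55 ± 0.06 with the inhibitor. With TGF-beta both means of 4T1 lay below all 4 means of 4TO7, and its compliant one was within 0.02 of the compliant inhibitor mean of 67NR.

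The 12 group means spanned 2.74 on the log2 scale, against a replicate SD of 0.13 pooled over groups. In descending order they were 4TO7 compliant inhibitor, 4TO7 compliant TGF-beta, 4T1 compliant inhibitor, 4TO7 rigid inhibitor, 4T1 rigid inhibitor, 4TO7 rigid TGF-beta, 67NR compliant inhibitor, 4T1 compliant TGF-beta, 67NR rigid inhibitor, 4T1 rigid TGF-beta, 67NR rigid TGF-beta and 67NR compliant TGF-beta. The order came from these same values, so the data under test chose which groups were neighbours. The adjustment covers the probes of a pair and not that choice, so the p-values of the steps are a description only. Of the 11 steps between neighbours, 3 passed limma's test after Benjamini-Hochberg adjustment over the 365 tested probes. These were the first step (0.41 ± 0.12 SE, adjusted p = 0.0345, in a pair that called 15.1% of all tested probes), the step between 4TO7 rigid TGF-beta and 67NR compliant inhibitor (0.70, adjusted p = 0.000188, 59.7% called), and the step between 4T1 rigid TGF-beta and 67NR rigid TGF-beta (0.44, adjusted p = 0.0043, 80% called). The other steps, of 0.01 to 0.26, did not pass, which does not show equal levels: 67NR with TGF-beta had 7.55 and 7.67 in rigid culture against 7.26 and 7.43 in compliant culture, without overlap, as 20.5% of tested probes did in that direction.

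As a description of these 24 values, line accounted for 66% of the sum of squares of miR-210, treatment for 24.1% and rigidity for 2.26%. The median over the 365 tested probes was 76.4% for line, 2.66% for treatment and 1.18% for rigidity. The interaction of line with treatment held 3.66% and that of line with rigidity 2.30%, and the spread between replicate arrays 1.22%. The medians of these 3 terms over the tested probes were 1.77%, 1.14% and 6.74% in the same order.

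The first comparison asks whether miR-210 responds to TGF-beta signalling. Over all lines it was lower with TGF-beta, at 8.36 on 12 TGF-beta arrays against 9.20 on 12 inhibitor arrays. The log2 change was -0.84 ± 0.05 (SE), a level 0.56 of that with the inhibitor (limma, adjusted p = 1.35e-09), in a comparison that called 39.5% of the 365 tested probes, 18.1% lower and 21.4% higher. The fall was the third largest of all tested probes. In an exact two-sided permutation test of the treatment labels within each line and microenvironment, p was 4.29e-05, the smallest that its 46656 arrangements allow.

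Both TGF-beta arrays had less normalized miR-210 than both inhibitor arrays in all 6 combinations of a line with a microenvironment. This held for 17 of the 365 tested probes, or 4.66%. On the deposited scale, before normalization, it held for miR-210 in 5 of the 6, the exception being compliant 4TO7.

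In 67NR miR-210 fell by 0.85 ± 0.09 on the log2 scale (adjusted p = 2.52e-06, 4 arrays against 4, 11% of probes called). In 4TO7 it fell by 0.43 ± 0.09 (adjusted p = 0.00169, 21.4% called), and this call was lost without normalization between arrays (-0.27, adjusted p = 0.113). In 4T1 it fell by 1.23 ± 0.09 (adjusted p = 1.52e-08, 31.8% called) and stood at 0.426 of the inhibitor level, the largest fall of any tested probe in that line. Within microenvironments the fall in 4TO7 was 0.45 ± 0.12 in rigid culture (adjusted p = 0.0225, 13.2% called) and 0.41 ± 0.12 in compliant culture (adjusted p = 0.0345, 15.1% called), and these calls were lost in 4 and 7 of 35 alternatives. In 4T1 it was 1.28 ± 0.12 in rigid culture (adjusted p = 1.2e-06, 18.4% called) and 1.18 ± 0.12 in compliant culture (adjusted p = 3.03e-06, 17.8% called).

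The size of the fall differed between lines in limma's F test (adjusted p = 0.000845, which 14.5% of tested probes passed). The fall was 0.80 ± 0.12 larger in 4T1 than in 4TO7 (adjusted p = 0.000367, 11.2% of probes called). Between 4TO7 and 67NR the fall differed by 0.42 ± 0.12, the smaller one being in 4TO7 (adjusted p = 0.0405, 11.5% called), but this call was lost in 14 of 35 alternatives, 12 of which each left out 1 array. The arrays left out in those 12 were all from 4TO7 or 67NR. Between 4T1 and 67NR the difference of -0.38 ± 0.12 did not pass (95% confidence interval -0.64 to -0.11, adjusted p = 0.0749, 6.85% called); it passed in 7 of the 35 alternatives, among them both scalings to the array median and the authors' value table.

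**Figure D2:**
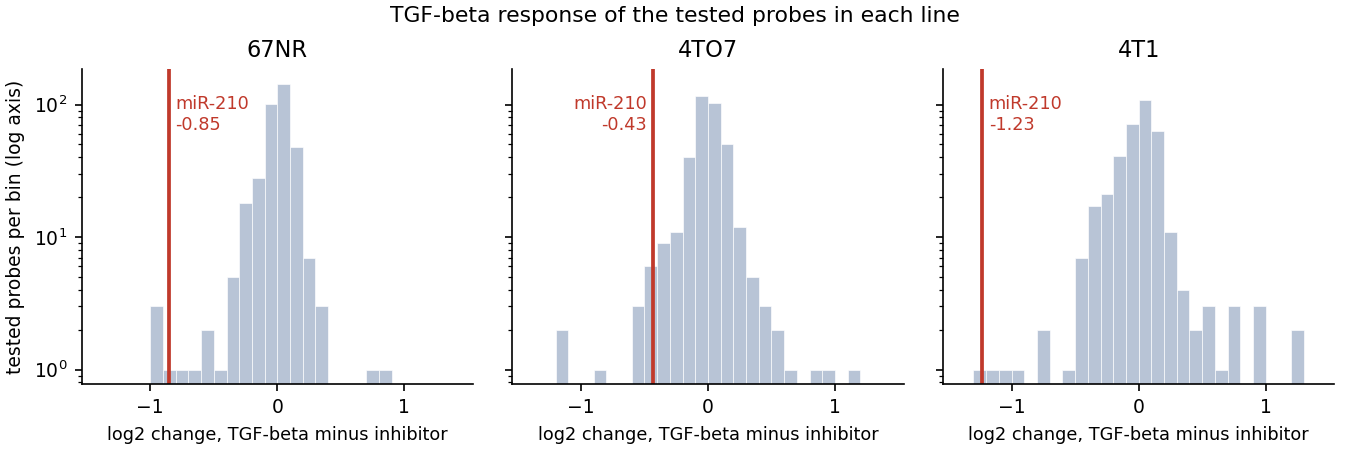
Log2 change with TGF-beta relative to the inhibitor for the 365 tested probes in each line, as histograms with a log count axis; the red line marks miR-210. MiR-210 lies at the low end in 67NR (-0.85) and 4T1 (-1.23). In 4TO7 (-0.43) it lies nearer to the bulk of probes, though its fall still ranked 9 among the 365 there.

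Slides could be compared in 4 cases where TGF-beta and inhibitor arrays of 1 line and microenvironment shared a slide, none of them in 4T1. On the normalized scale the difference was -1.12 in compliant 67NR, -0.83 in rigid 67NR, -0.63 in rigid 4TO7 and -0.30 in compliant 4TO7, so miR-210 was lower with TGF-beta in all 4. The deposited intensities of that last pair differed the other way, by 0.08. With slide as a fixed block over all arrays the change was -0.85 ± 0.06 (adjusted p = 5.42e-07).

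The second comparison asks what the stiffness of the surroundings does to miR-210. In 4TO7 it was lower in rigid culture, at 9.32 against 9.89 in compliant culture, a log2 change of -0.56 ± 0.09 (adjusted p = 0.000958, 4 arrays against 4). Only 10 of the 365 probes passed in this comparison (2.74%), and the 4 rigid arrays lay below the 4 compliant ones, which held for 1.64% of probes. In 67NR the change was 0.07 ± 0.09 (95% confidence interval -0.12 to 0.26, adjusted p = 0.692, 11% called). In 4T1 it was -0.27 ± 0.09 (95% confidence interval -0.46 to -0.09, adjusted p = 0.0641, 7.4% called), which passed in 9 of 35 alternatives, with adjusted p-values over all 35 from 0.0123 to 0.229.

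Averaged over the lines miR-210 was 0.26 ± 0.05 lower in rigid than in compliant culture (adjusted p = 0.00304, 21.9% of probes called), and an exact two-sided permutation of the microenvironment labels within line and treatment gave p = 0.00827. The effect of rigidity differed between lines (F test, adjusted p = 0.014, which 8.22% of probes passed). It was 0.63 ± 0.12 more negative in 4TO7 than in 67NR (adjusted p = 0.00644, 6.85% called). Between 4T1 and 67NR it differed by -0.34 ± 0.12 (adjusted p = 0.129, 5.48% called) and between 4T1 and 4TO7 by 0.29 ± 0.12 (adjusted p = 0.492, 1.64% called), and neither passed.

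Within 4TO7 miR-210 was lower in rigid culture by 0.58 ± 0.12 on the log2 scale with TGF-beta (adjusted p = 0.0172, 2.47% called) and by 0.54 ± 0.12 with the inhibitor (adjusted p = 0.0441, 1.37% called). The call with TGF-beta was lost in 4 of 35 alternatives, which were array weights and leaving out either array of compliant 4TO7 with TGF-beta or set 2 of rigid 4TO7 with TGF-beta (-0.40, adjusted p = 0.162). The call with the inhibitor was lost in 24 of 35. On the slides that held both microenvironments of 1 line and treatment, the differences were -0.79 in 4TO7 with TGF-beta, -0.27 in 4T1 with TGF-beta and -0.34 in 4T1 with the inhibitor. No slide held such a pair for 67NR.

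**Figure D3:**
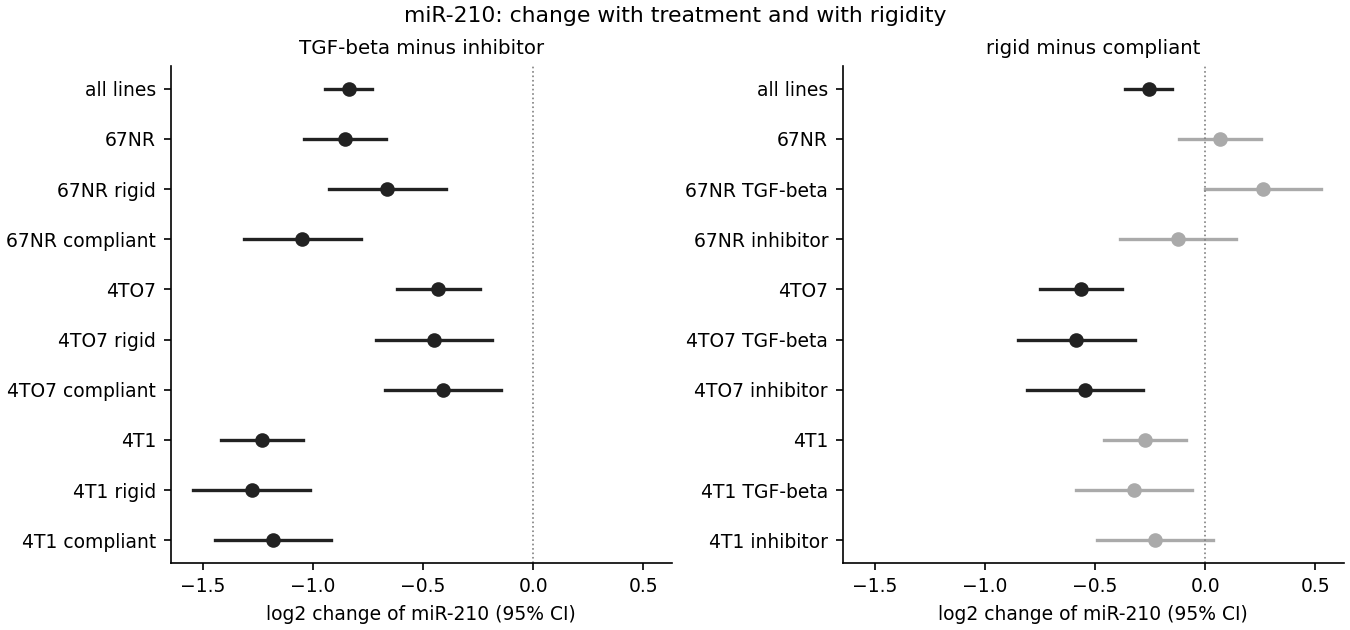
Log2 change of miR-210 with its 95% confidence interval for TGF-beta minus inhibitor (left) and rigid minus compliant (right), over all lines, per line and within each line; black marks an adjusted p under 0.05 and grey one above it. The treatment changes are all below 0, and the rigidity changes lie lowest in 4TO7 (-0.56) and around 0 in 67NR (0.07).

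Whether stiffness altered the response to TGF-beta was tested as the difference of 2 differences. The fall with TGF-beta was 0.80 ± 0.07 on the log2 scale in rigid culture (24.1% called) and 0.88 ± 0.07 in compliant culture (29.6% called), a difference of 0.08 ± 0.10 (95% confidence interval -0.13 to 0.30, adjusted p = 0.952). In 67NR the fall was 0.66 ± 0.12 in rigid (4.93% called) and 1.05 ± 0.12 in compliant culture (8.49% called), a difference of 0.39 ± 0.18 that had an unadjusted p of 0.0439 and did not pass (limma, adjusted p = 0.63). The differences were -0.04 ± 0.18 in 4TO7 and -0.10 ± 0.18 in 4T1. In limma none of the 365 probes passed this test over all lines (0%), and 22 had an unadjusted p under 0.05.

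The third comparison sets the lines against each other, over all 4 conditions with 8 arrays each. MiR-210 averaged 9.60 in 4TO7 and 7.91 in 67NR, a difference of 1.70 ± 0.06 or 3.24-fold (adjusted p = 3.87e-13, in a comparison that called 86.8% of probes). It averaged 8.83 in 4T1 and 7.91 in 67NR, a difference of 0.92 ± 0.06 or 1.89-fold (adjusted p = 5.59e-10, 89.6% called). All 8 arrays of 4TO7 lay above all 8 of 67NR, which held for 18.4% of probes. Between 4T1 and 4TO7 the difference was -0.78 ± 0.06 (adjusted p = 2.33e-08, 63% called). The line with the highest miR-210 was thus the invasive 4TO7 and not the metastatic 4T1.

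The distance between 4T1 and 4TO7 depended on the treatment, as the test of the TGF-beta effect above shows. With TGF-beta, 4T1 was 1.05 ± 0.12 lower than 4TO7 in rigid culture (adjusted p = 6.18e-06, 28.5% called) and 1.31 ± 0.12 lower in compliant culture (adjusted p = 3.95e-07, 29.6% called). With the inhibitor, 4T1 was 0.54 ± 0.12 lower in compliant culture (adjusted p = 0.00343, 39.2% called), a call lost without normalization between arrays (-0.21, adjusted p = 0.422) and without set 1 of compliant 4TO7 with inhibitor (-0.41). In rigid culture with the inhibitor the difference was -0.22 ± 0.12 (95% confidence interval -0.48 to 0.05, adjusted p = 0.177, 36.7% called), which passed under both scalings to the array median. 4TO7 exceeded 67NR by 1.27 to 2.33 in the 4 conditions, the most in compliant culture with TGF-beta, where it was 5.04-fold higher. The shares of probes called there were 65.8% in rigid culture with TGF-beta, 66.8% in rigid culture with the inhibitor, 75.1% in compliant culture with TGF-beta and 68.5% in compliant culture with the inhibitor. All line differences within a slide had the sign of the overall one, 3 for 4TO7 over 67NR (1.16 to 1.82), 2 for 4T1 over 67NR (0.94 and 1.22) and 2 for 4T1 against 4TO7 (-1.28 and -0.45).

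Other miRNAs tied to low oxygen moved in both directions with TGF-beta. A list of 14 miRNAs reported elsewhere as raised by hypoxia was measured by 12 tested probes, of which 4 rose and 4 fell with TGF-beta over all lines (66.7% called, against 39.5% of all tested probes), with a median change of -0.05 beside 0.01 for all. MiR-26a and miR-26b, which share a seed, fell by 0.40 ± 0.03 and 0.20 ± 0.03, and miR-322, the rodent form of miR-424, which targets the CUL2 scaffold that marks HIF for destruction, fell by 0.20 ± 0.03. MiR-181c fell by 0.085 ± 0.02. The closely related miR-181a and miR-181b rose by 0.88 ± 0.02 and 0.92 ± 0.02. MiR-155, an inflammation-induced miRNA detected on 20 of 24 arrays, rose by 0.46 ± 0.03 on average. Its rise was 1.15 in 4TO7, where 4 of 8 arrays detected it, and 0.18 in 4T1. The miR-155 change of 0.05 in 67NR did not pass (limma, adjusted p = 0.582). The oncogenic miR-21 rose by 0.45 ± 0.05. The 4 probes that did not pass were miR-24 and the probes that carry the names of miR-23a with miR-23b, miR-27a with miR-27b and miR-103 with miR-107, which cannot separate the members of each pair.

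With rigidity over all lines, 3 of the 12 probes were lower and none was higher (25%, against 21.9% of all tested probes, or 11.2% counting lower ones alone). These were miR-181a (-0.19 ± 0.02), miR-181b (-0.15 ± 0.02) and miR-26a (-0.13 ± 0.03), so that miR-26a was the member of the list that was lower, like miR-210, in both comparisons.

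Between lines the hypoxia list lay mostly on the higher side in 4T1. Against 67NR, 4T1 had 11 of the 12 probes higher and 1, miR-322, lower, with a median of 0.80 beside -0.22 for all tested probes, of which 30.7% were higher and 58.9% lower. 4TO7 against 67NR had 8 higher and 3 lower (miR-155, miR-181a and miR-181b), with a median of 0.44 beside -0.15 for all, of which 29.9% were higher and 57% lower, and with 6 higher and 4 lower without normalization between arrays. 4T1 against 4TO7, where miR-210 was lower, had 10 of the 12 higher and 1, miR-322, lower, with a median of 0.51 beside -0.07 for all, of which 23% were higher and 40% lower.

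A list of 14 miRNAs reported elsewhere to repress HIF subunits, the HIF-limiting enzyme FIH-1 or the VHL-CUL2 complex had 14 tested probes, 4 higher and 2 lower with TGF-beta over all lines (42.9% called, against 39.5% of all, median 0.04 beside 0.01). MiR-22, reported to target HIF-1alpha, rose by 0.74 ± 0.03, and miR-155 rose as given above. MiR-135b rose by 0.31 ± 0.04, with detection on 3 of 24 arrays, all of them from 4T1. By line, its change passed in 4T1 alone (0.72) and was 0.08 in 67NR and 0.13 in 4TO7. MiR-199a-5p, reported to repress HIF-1alpha, rose by 0.10 ± 0.03. MiR-31, reported to repress FIH-1, fell by 0.31 ± 0.05, and miR-322 fell too. None of the 14 passed for rigidity over all lines in limma (0%, against 21.9% of all tested probes), where 1 had an unadjusted p under 0.05. Between lines the list had 9 higher and 5 lower in 4T1 against 67NR (100% called, against 89.6% of all tested probes). Against 67NR, 4TO7 had 7 higher and 5 lower (85.7% against 86.8%), but 7 and 7 under median scaling and 6 and 6 without normalization. Against 4TO7, 4T1 had 8 higher and 3 lower (78.6% against 63%). MiR-18a and miR-20b were detected on no array of 67NR, and miR-429 and miR-135b only in 4T1. They passed the filter only through lines that detected them, so their higher calls against the other lines are no support.

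The miRNAs with the most similar profile were sought among 319 tested probes with 1 name and detection on both arrays of at least 6 groups. Over the 12 group means the highest correlations with miR-210 were those of miR-29c (r = 0.93), let-7b (0.93), miR-130b (0.93), miR-31* (0.92) and miR-32 (0.91). These points share the arrays and the large differences between lines, and the correlations are given as a description only. Each line's mean was then subtracted, which removes the average line differences but not line differences in the treatment and rigidity effects. The closest after that were miR-31* (r = 0.98), miR-30d (0.95), miR-29c (0.94), miR-125a-5p (0.91) and miR-100 (0.91).

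The mature sequences of the profile neighbours within lines that RefSeq holds are given to show their seeds, with bases 2 to 8 in capitals. None could share the seed of miR-210, which only miR-210-3p carries in that table. MiR-30d is named only.
mmu-miR-31-3p (miR-31* on the array): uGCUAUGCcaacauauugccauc
mmu-miR-29c-3p: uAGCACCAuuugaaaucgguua
mmu-miR-125a-5p: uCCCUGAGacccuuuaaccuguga
mmu-miR-100-5p: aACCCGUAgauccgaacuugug

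MiR-31* (mmu-miR-31*), the passenger strand of miR-31, had smaller changes than miR-210 with TGF-beta in each line and with rigidity over all lines. Between 4T1 and 67NR it differed more than miR-210 did, by 1.13 against 0.92. Over all lines it was lower with TGF-beta, and its change with rigidity of -0.07 ± 0.02 did not pass (adjusted p = 0.0563). With TGF-beta it fell by 0.39 ± 0.04 in 67NR, 0.20 ± 0.04 in 4TO7 and 0.56 ± 0.04 in 4T1. Since miR-31* was chosen for its likeness to miR-210 on these same arrays, these values are a description and no independent support. In 4TO7 it was 0.24 ± 0.04 lower in rigid than in compliant culture, among the 10 probes that passed there.

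**Figure D4:**
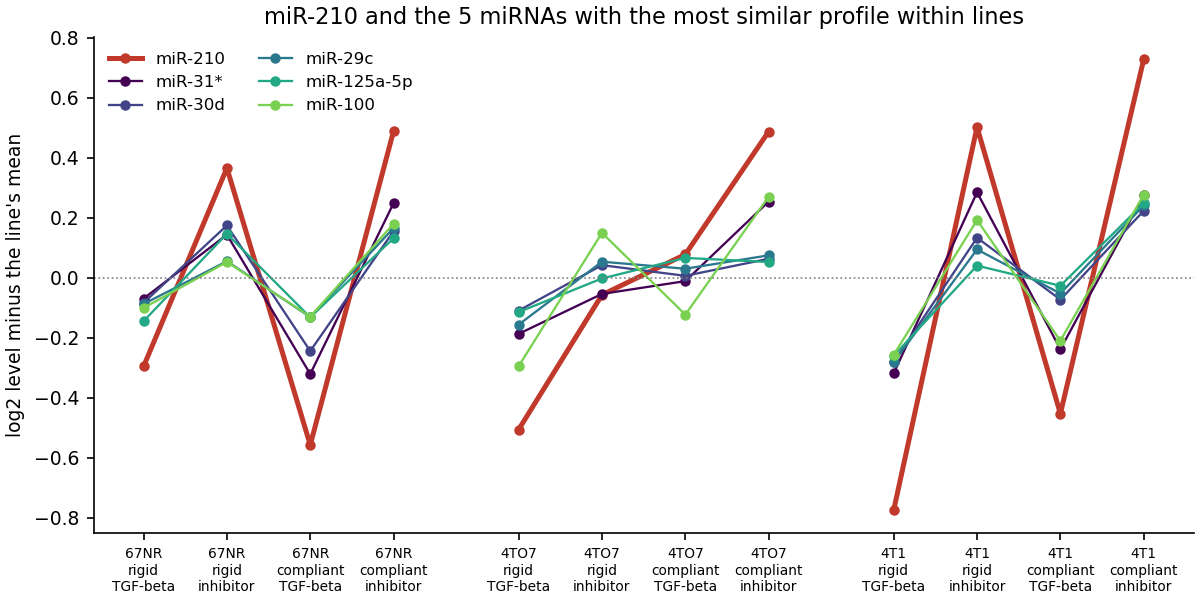
Mean log2 level of each group minus the mean of its line for miR-210 (thick red line) and the 5 miRNAs with the highest correlation to it after that subtraction; each point is the mean of 2 arrays. MiR-210 has the widest swings of the 6, at -0.78 in rigid 4T1 with TGF-beta and 0.73 in compliant 4T1 with the inhibitor, and miR-31* (r = 0.98) follows it at a smaller size.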

How the data were processed

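Per the file headers and the column notes deposited with them, each array file gives a relative intensity (DY649 over DY547, after background subtraction and a labelling correction), its error in the same unit, a detection p-value and a fail code. A table of log2 values deposited by the authors covers 338 probes and equals log2 of the deposited intensity plus 1 constant per array. Scanner and software versions are not given in the sources used here.

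Here the log2 of each intensity was taken for 558 mouse miRNA probes and the arrays were brought to common quantiles (limma 3.58.1, R 4.3.3). A probe was tested if some group had it detected on both of its arrays and fewer than 12 arrays set its fail code (365 probes). The 12 group means were fitted with lmFit (12 residual degrees of freedom), contrasts weighted groups equally, and eBayes used a mean-variance trend; p-values are two-sided and adjusted by Benjamini and Hochberg over the 365 probes of each comparison, with a threshold of 0.05. The procedure was tested on simulated data. Named miRNAs were miR-210, list members with the largest changes or needed to account for a count, and the 5 closest in profile under each measure. The probe, lists and comparisons were chosen with earlier results of these data known. The number of arrays limits the precision. Alternatives covered scaling between arrays, the authors' table, the detection filter, slide and set blocks, array weights, the variance trend and leaving out each array.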

Additional observations from a re-analysis of the deposited data

Results flagged for a closer look

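Differences between lines in an effect on miR-210 that passed limma's test were these 3. The log2 change with TGF-beta was 0.42 higher in 4TO7 than in 67NR (that is, a smaller fall), and -0.80 apart between 4T1 and 4TO7 (a larger fall in 4T1). The log2 change with rigidity was -0.63 apart between 4TO7 and 67NR. Groups of 2 arrays are too small for a check of single arrays that stand apart.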

How the results depend on the processing

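The fall of miR-210 with TGF-beta over all lines (-0.85 to -0.78 outside single left-out arrays), in 67NR and in 4T1, the fall with rigidity over all lines and in 4TO7, the 3 line differences, the difference of the TGF-beta effect between 4T1 and 4TO7 and both F tests kept direction and call in all 35 alternatives. Without normalization between arrays the change with TGF-beta in 4TO7 was -0.27 (adjusted p = 0.113), that of rigidity in 4T1 passed at -0.40, and the TGF-beta effect in rigid minus compliant culture turned to -0.0009, as did the rigidity change of 67NR with the inhibitor (0.0026); the hypoxia list then had 2 lower and the HIF list 1. Rigidity in 4T1 also passed under median scaling (-0.29), scaling to the median of the probes present on every array (-0.28) and the authors' table (-0.30), and without one array it lay between -0.35 and -0.20, passing without either array of rigid 4TO7 with TGF-beta or set 1 of rigid 4T1 with inhibitor. The TGF-beta effect of 4TO7 minus 67NR lost its call at 0.33 when scaled to the median of those probes and at 0.42 without the detection filter; without one array it lay between 0.33 and 0.51, and the call was lost without either array of compliant 4TO7 with TGF-beta, rigid 4TO7 with inhibitor, compliant 67NR with inhibitor or rigid 67NR with TGF-beta, without set 1 of rigid 4TO7 with TGF-beta, compliant 67NR with TGF-beta or rigid 67NR with inhibitor, and without set 2 of compliant 4TO7 with inhibitor. The 4T1 minus 67NR effect passed under median scaling (-0.40), over those probes (-0.42) and in the authors' table (-0.43), and lay between -0.46 and -0.30 without one array, passing without set 2 of rigid 4T1 with inhibitor or of rigid 4TO7 with TGF-beta. The cause of these changes was not tested. Within lines, the TGF-beta effect in rigid minus compliant culture turned sign without one array in 4TO7 (-0.22 to 0.15; values above 0 were 0.15, 0.10 and 0.0032) and in 4T1 (-0.25 to 0.058). Calls over all probes moved from 144 to 57 for TGF-beta and from 80 to 13 for rigidity without normalization (39 for rigidity with slide as a block); higher and lower TGF-beta calls were 78 and 66, but 43 and 84 under median scaling, 100 and 52 over those probes and 110 and 50 in the authors' table. The labels do not say what arrays of a set share; set 1 minus set 2 differences correlated between groups of a line at r = -0.09 to 0.28 in 67NR, -0.16 to 0.38 in 4TO7 and 0.23 to 0.49 in 4T1. With the set number within each line as a replicate block, the change with TGF-beta was -0.84 ± 0.04, rigidity in 4T1 passed at -0.27 and the 4T1 minus 67NR effect at -0.38, as they did with 1 set number over all arrays. Signal near background limits the lowest levels, those of compliant 67NR with TGF-beta.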
